A study of Rattus norvegicus with 6 samples.

Results

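p53 is a transcription factor that is held at a low level by the ubiquitin ligase Mdm2 and accumulates after DNA damage or other stress. It binds paired decamers in DNA and raises genes that stop the cell cycle, repair DNA, adjust metabolism or start cell death. Several of these genes can also be raised without p53, Cdkn1a among them. The 9 genes described here are Ccng1, Cdkn1a, Mdm2, Bax, Sesn1, Zmat3, Phlda3, Tp53inp1 and Aen, all known p53 targets, taken by symbol from the 15388 genes of the count tables. All 9 were present and all 9 passed edgeR's filter on low counts, as did 11738 genes in all. The set was chosen by the measured rise of Ccng1 in late pregnancy in these same samples. Its values are therefore given as a description without a test, and the question was whether the other 8 genes were higher as well.

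Thyroid tissue was taken from adult Sprague-Dawley rats, either non-pregnant (NP) or on day 18 of pregnancy, with day 1 the day of the vaginal plug (late pregnancy, LP), and poly(A) RNA was sequenced from 3 samples of each group. The labels name no treatment or genetic change in either group, and the age in weeks is not given in the sources used here. The files held raw read counts per gene, 2752144 to 2965936 reads per NP sample and 3224104 to 3449857 per LP sample. In each group the counts of replicates 2 and 3 agreed within sampling noise (chi-square per degree of freedom 1.02 in NP and 0.995 in LP), and the pair was counted as 1 sample in each mean ± SD, so that n = 2 per group. Replicate 1 stood apart from them, with values of 3.70 to 4.11. The study took thyroids from 3 rats per group, but the labels call the samples repeats without tying each to an animal, so the p-values measure only the spread between these samples, which may be technical.

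The defining genes of thyroid tissue were present, with 10 of 10 follicular cell markers in the table and a summed level of 231463 to 249995 CPM (reads scaled to a common library size) in NP and 241613 to 258238 in LP. Markers of skeletal muscle fibres moved with pregnancy. The 19 of 25 listed muscle markers that were in the table summed to 35.7 to 89.4 CPM in NP and 6305 to 6650 CPM in LP, with Myh1 and Mylpf at 0 in every NP sample, and 15 of the 17 tested were higher in LP. The levels given here are of whole tissue, in which a change in the number of cells of a type and a change in RNA per cell cannot be told apart.

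The upstream sequences of the members are shown first because p53 binds paired decamers in DNA. The genes were taken by symbol as known p53 targets. The counts of decamers below are therefore not independent of that choice and are a description only. The 250 bases before the transcription start were available for 6 of the 9 members in the RefSeq promoter table (build GRCr8, other than the rn5 build of the counts), and Bax, Zmat3 and Tp53inp1 had no entry. The p53 decamer reads, in either strand, 3 purines, C, 2 bases of A or T, G and 3 pyrimidines. It was found in the upstream sequences of 4 members, Ccng1, Cdkn1a, Sesn1 and Aen, and in 6.13% of the 12510 promoters of genes in the count table. With up to 1 mismatch outside the C and the G it was found in 42.9% of promoters. Capitals mark decamers with up to 1 mismatch in each sequence printed.
Ccng1 (GRCr8 chr10:25684877-25685126, minus strand): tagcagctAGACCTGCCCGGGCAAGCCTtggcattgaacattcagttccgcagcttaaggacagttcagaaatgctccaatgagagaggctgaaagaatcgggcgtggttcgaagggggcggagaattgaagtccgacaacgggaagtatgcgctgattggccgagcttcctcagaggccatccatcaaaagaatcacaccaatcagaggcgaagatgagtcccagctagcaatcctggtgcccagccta
Cdkn1a (GRCr8 chr20:7150682-7150931, plus strand): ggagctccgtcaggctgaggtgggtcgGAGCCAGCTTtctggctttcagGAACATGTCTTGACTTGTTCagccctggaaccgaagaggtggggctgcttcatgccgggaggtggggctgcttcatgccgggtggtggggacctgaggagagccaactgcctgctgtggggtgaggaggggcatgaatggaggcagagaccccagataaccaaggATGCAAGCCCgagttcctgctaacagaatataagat
In Ccng1 the decamers AGACCTGCCC, with 1 mismatch, and GGGCAAGCCT, with 0, adjoined each other from 242 to 223 bases before the start. In Cdkn1a the decamers GAACATGTCT, with 0 mismatches, and TGACTTGTTC, with 1, adjoined each other from 201 to 182 bases before the start. Such an adjoining pair was present in 13 of the 12510 promoters, or 0.104%, and in 2 of the 6 members. This pair was looked for after the values were seen. Sesn1 and Aen are shown in the same marking as the other two members with an exact decamer. Sesn1 held 3 decamers, 1 with 0 mismatches, and Aen held 1, with 0, and neither held an adjoining pair.
Sesn1 (GRCr8 chr20:46948469-46948718, plus strand): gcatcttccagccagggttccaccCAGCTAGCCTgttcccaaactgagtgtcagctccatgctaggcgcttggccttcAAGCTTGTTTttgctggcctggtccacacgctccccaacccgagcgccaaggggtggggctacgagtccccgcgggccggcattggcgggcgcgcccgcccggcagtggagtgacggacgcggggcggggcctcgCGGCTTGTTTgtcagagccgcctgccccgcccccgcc
Aen (GRCr8 chr1:142224283-142224532, plus strand): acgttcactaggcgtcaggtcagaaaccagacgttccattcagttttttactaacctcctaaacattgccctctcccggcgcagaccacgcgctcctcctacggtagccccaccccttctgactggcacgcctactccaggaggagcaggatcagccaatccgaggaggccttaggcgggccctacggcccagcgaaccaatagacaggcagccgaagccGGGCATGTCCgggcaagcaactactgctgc
Mdm2 and Phlda3 held no decamer in this window even with 1 mismatch, which says only that these letters are not in these 250 bases. A match is a run of letters and not a measured binding site.

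Levels were high in LP for Ccng1 and Cdkn1a and close to the NP levels for the other 7 genes. Ccng1, the G-type cyclin that recruits a phosphatase to Mdm2, was at 89.0, 75.0 and 85.0 CPM in NP replicates 1, 2 and 3 and at 187, 181 and 186 CPM in LP replicates 1, 2 and 3. Its groups did not overlap, with means of 84.5 ± 6.35 CPM (SD, n = 2) in NP and 185 ± 2.44 CPM in LP. The log2 fold change of Ccng1 was 1.15 (SE, the standard error, 0.064), or 2.23-fold. These values chose the gene.

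Cdkn1a encodes p21, the inhibitor of cyclin-dependent kinases through which p53 stops the cell cycle. It was at 19.3, 14.1 and 12.5 CPM in the NP samples and at 34.5, 31.4 and 35.9 CPM in the LP samples. Every LP sample of Cdkn1a lay above every NP sample, and the NP replicates differed more among themselves than the LP replicates. The means were 16.3 ± 4.26 CPM (SD, n = 2) and 34.1 ± 0.593 CPM, and the log2 fold change was 1.16 (SE 0.15, 95% interval 0.84 to 1.47, adjusted p = 1.1e-05 by the quasi-likelihood test of edgeR, adjusted over all genes tested). Cdkn1a was thus 2.23-fold higher in LP. With Ccng1, 2 of the 9 members were called higher at an adjusted p below 0.05, where 15.3% of all genes tested were, and 0 were called lower, where 11.7% were (27.0% in either direction). Apart from Ccng1 the count was 1 of 8. No member was lower at an unadjusted p below 0.05 or by DESeq2 either, with 0 in each case. Cdkn1a was also past the study's criteria, which ask in addition for a fold change above 2 and were met by 4.90% of genes in the upward and 0.537% in the downward direction. Whether the muscle RNA in the LP samples takes part in the values of Ccng1 and Cdkn1a was not tested.

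**Figure D1:**
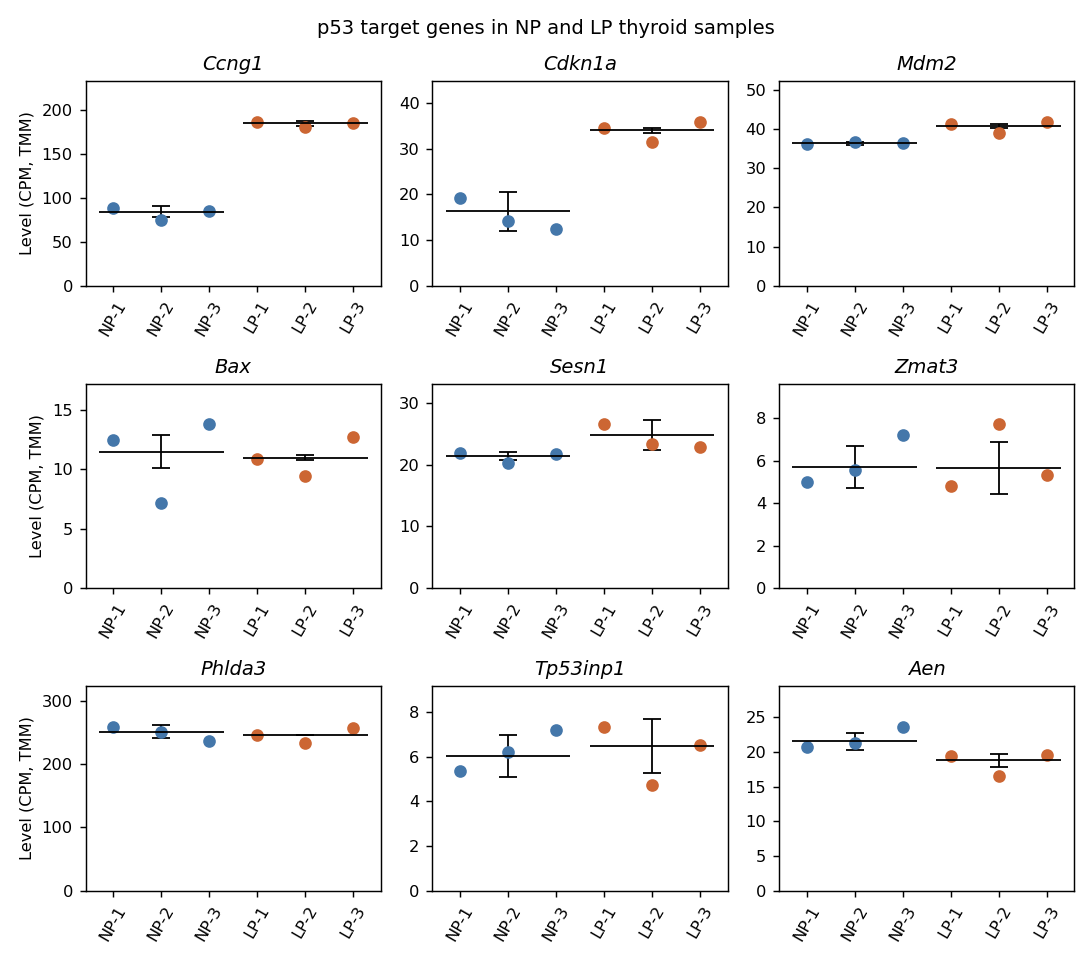
Level of each of the 9 p53 targets (CPM with TMM normalization, linear axes from 0) in the 3 NP samples (blue) and the 3 LP samples (orange), where horizontal lines are group means and bars are ± 1 SD with n = 2, replicates 2 and 3 being averaged first. Ccng1 lay between 75.0 and 89.0 CPM in NP and between 181 and 187 CPM in LP, and Cdkn1a likewise showed no overlap, while Bax, Zmat3, Phlda3 and Tp53inp1 overlapped between the groups.

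Mdm2, the ligase that marks p53 for degradation and is itself a p53 target, was at 36.1, 36.7 and 36.4 CPM in NP and 41.2, 39.1 and 41.8 CPM in LP. The LP samples all lay above the NP samples, but the log2 fold change of Mdm2 was 0.16 (SE 0.093, 95% interval -0.037 to 0.36) and did not pass the test (adjusted p = 0.28, edgeR). Sesn1, a sestrin that restrains the growth kinase mTORC1 and oxidative stress, was at 21.8, 20.3 and 21.7 CPM in NP and 26.5, 23.4 and 22.8 CPM in LP. Its log2 fold change was 0.19 (SE 0.13, adjusted p = 0.34), again without overlap and without passing the test. In all, 4 of the 9 members had every LP sample above every NP sample, against 21.1% of all genes tested. Ccng1, whose rise chose the set, is 1 of the 4, and without it the count was 3 of 8. For 1 member, Aen, every LP sample lay below every NP sample, against 18.9% of all genes tested.

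None of the other 5 members passed edgeR's test, and of the 7 uncalled members 0 had an unadjusted p below 0.05 and 0 were called by DESeq2. Bax, the pore-forming protein of the mitochondrial outer membrane, had 35, 22 and 42 reads in NP and 34, 32 and 43 reads in LP. Its log2 fold change was -0.012 (SE 0.23), and the groups overlapped. Aen, a nuclease that degrades DNA and RNA during apoptosis, was at 20.7, 21.3 and 23.6 CPM in NP and 19.5, 16.6 and 19.6 CPM in LP, lower in each LP sample but with a log2 fold change of -0.24 (SE 0.14) and an adjusted p of 0.23 in edgeR. Phlda3, which competes with the kinase Akt for membrane lipids, had 723 to 765 reads per sample in NP and 770 to 869 in LP. After scaling for depth its levels were 259, 251 and 237 CPM against 246, 234 and 258 CPM, so that the groups overlapped, and its 95% interval on the log2 scale was -0.14 to 0.11. Zmat3, an RNA-binding zinc finger protein, and Tp53inp1, a stress protein of autophagy and cell death, had 14 to 22 reads and 15 to 22 reads per NP sample and 15 to 26 and 16 to 23 reads per LP sample. Their log2 fold changes were 0.0045 (SE 0.28) and -0.025 (SE 0.26), and neither group of samples was set apart. For Tp53inp1 the mean with replicates 2 and 3 averaged was higher in LP, 6.49 against 6.04 CPM, while the fit on 6 samples gave the negative value.

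The precision differed widely between these 7 genes. The narrowest 95% interval was that of Phlda3 and the widest that of Zmat3, from -0.58 to 0.59 on the log2 scale. The upper ends were 0.36 for Mdm2, 0.48 for Bax, 0.46 for Sesn1, 0.59 for Zmat3, 0.11 for Phlda3, 0.53 for Tp53inp1 and 0.053 for Aen. The edgeR fit takes the 6 samples as independent. In that fit the interval of each of the 7 genes ended below the 0.84 at which that of Cdkn1a began. A 2-fold rise lay outside all 7 of these intervals. With DESeq2 the standard errors were larger, 0.22 for Cdkn1a, 0.42 for Zmat3 and 0.40 for Tp53inp1. The DESeq2 log2 fold changes were 1.16 for Cdkn1a, 0.0042 for Zmat3 and -0.019 for Tp53inp1. With these standard errors, 95% intervals of Zmat3 and Tp53inp1 would overlap that of Cdkn1a. The separation of all 7 genes from Cdkn1a is therefore stated for the edgeR fit only.

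**Figure D2:**
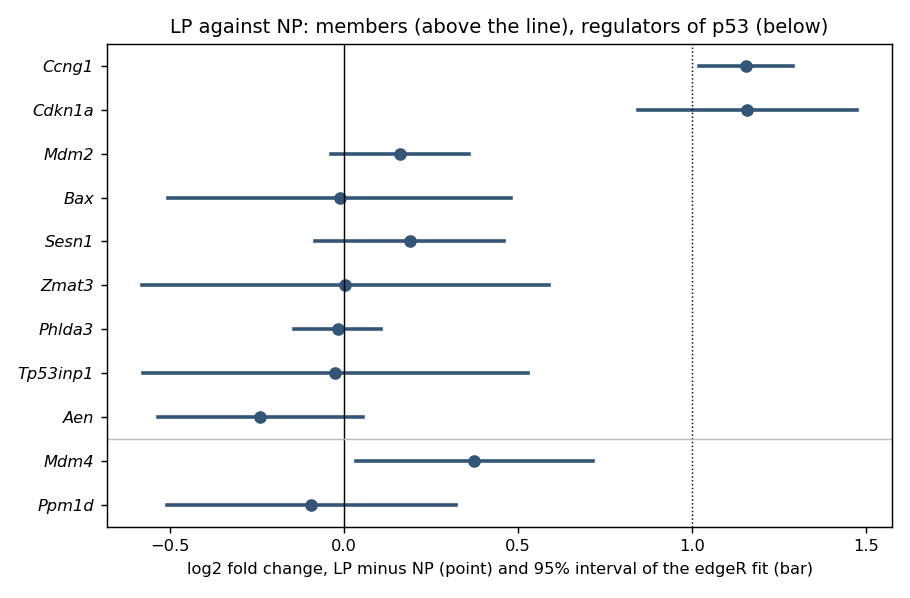
Log2 fold change of LP against NP (points) with the 95% interval of the edgeR fit (bars) for the 9 members and, below the grey line, for Mdm4 and Ppm1d, with dotted and solid vertical lines at a fold change of 2 and at no change. Ccng1 and Cdkn1a lie at 1.15 and 1.16, and the bars of the other 7 members all end below the dotted line.

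The comparison was also made within each kind of replicate, since replicate 1 stood apart. The log2 ratio of LP to NP, with 0.5 CPM added to each level, was 1.07 in replicate 1 and 1.19 in replicates 2 and 3 for Ccng1. For Cdkn1a it was 0.82 and 1.31. The rise of both was therefore present in each. Mdm2 and Sesn1 were above 0 in each, at 0.19 and 0.15 for Mdm2 and 0.28 and 0.14 for Sesn1, and Aen was below 0 in each, at -0.087 and -0.30. Bax, Zmat3, Phlda3 and Tp53inp1 had opposite signs in the 2 kinds of replicate, with the largest gap for Tp53inp1, 0.42 in replicate 1 and -0.24 in replicates 2 and 3. Smooth muscle markers also separated the replicates, with a sum of 240 and 172 CPM in replicate 1 of NP and LP and of 1493 to 1616 CPM in the others, and so did fibroblast markers, with 1171 and 1426 CPM against 2041 to 2358 CPM. Their part in these ratios was not tested.

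**Figure D3:**
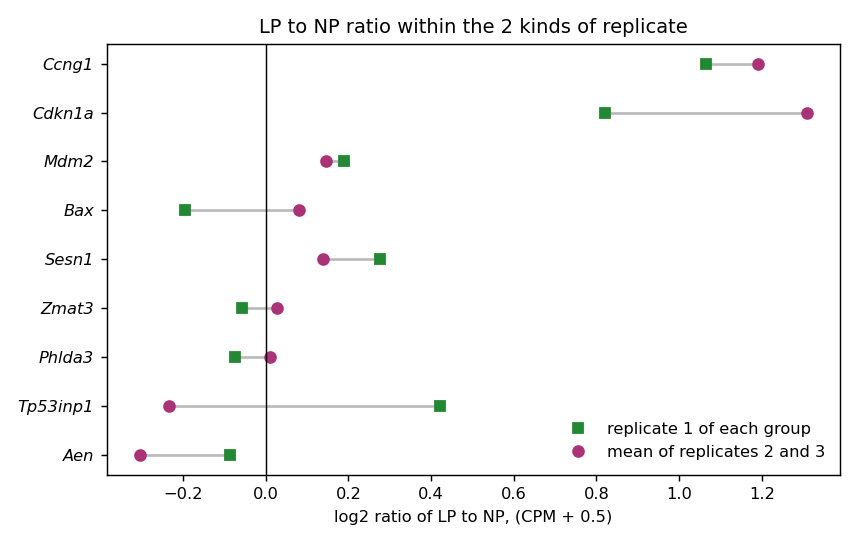
Log2 ratio of LP to NP, from CPM with 0.5 added, for each of the 9 members in replicate 1 of each group (squares) and in the mean of replicates 2 and 3 (circles). Ccng1 and Cdkn1a lie above 0.8 in each kind of replicate, while Bax, Zmat3, Phlda3 and Tp53inp1 lie on both sides of 0.

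Genes that act with or on p53 were examined next. Of the 20 listed genes of this network 16 were tested. By edgeR 2 of them (12.5%) were higher in LP and 0 lower, where 15.3% and 11.7% of all genes tested were. DESeq2 called 0 of them in either direction, where it called 1219 higher and 703 lower of all 11738 genes tested. At an unadjusted p below 0.05, 4 were higher and 2 lower, and the share over all genes was not counted for that threshold. Hipk2, a kinase that phosphorylates p53, rose by 0.43 (SE 0.12, adjusted p = 0.015) and Crebbp, an acetyltransferase that acts on p53 and on histones, by 0.26 (SE 0.060, adjusted p = 0.0038) on the log2 scale. The change of Hipk2 was larger in replicate 1, at 0.89, than in replicates 2 and 3, at 0.21, and its adjusted p was 0.072 without NP replicate 1 and 0.086 without LP replicate 1. With DESeq2 the adjusted p was 0.064 for Hipk2 and 0.058 for Crebbp. Mdm4, the partner of Mdm2 that blocks p53, was higher in each LP sample, with a log2 fold change of 0.37 (SE 0.16) that missed the threshold (adjusted p = 0.099). Ppm1d, the p53-induced phosphatase that closes the loop on the damage kinases, had a log2 fold change of -0.093 (SE 0.20).

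Beyond the members, 55 other p53 targets were listed in 5 functional groups. Of these 50 were in the table and 42 were tested, of which 4 (9.52%) were higher in LP, 3 lower and 35 not called. Among all genes tested, 15.3% were called higher and 11.7% lower. The share of these targets called higher was not above that of all genes, and the difference was not tested. The median log2 fold change of the 42 genes was 0.022, beside -0.0089 for all genes tested, and no gene among them changed more than 2-fold. With the replicate number as a block, 6 were higher, Gpx1 and Rrm2b being added, and 6 lower, with Dram1 and Igfbp3 among those added. Calls over all genes also rose with the block, from 1794 to 2057 higher and from 1374 to 1727 lower. Of the cell cycle arrest genes 1 of 5 tested was higher, Btg2, an antiproliferative regulator of mRNA decay, which rose by 0.44 on the log2 scale (SE 0.058, adjusted p = 1.31e-05). Among 8 tested genes of cell death 0 were higher and 1 was lower, the membrane protein gene Perp, at -0.27 (SE 0.072, adjusted p = 0.0098), with an adjusted p of 0.057 without LP replicate 2. In the metabolic group of 10, Lpin1, a phosphatidate phosphatase of lipid synthesis with high expression in muscle, rose by 0.94 (SE 0.11, adjusted p = 4.72e-06), from 21.4, 21.3 and 19.0 CPM to 41.2, 38.2 and 39.2 CPM. Whether the muscle RNA of the LP samples takes part in the value of Lpin1 was not tested. Gls2, the p53-induced glutaminase, fell by 0.34 on the log2 scale (SE 0.084, adjusted p = 0.0055). With DESeq2 the calls of Perp (adjusted p = 0.056) and Gls2 (0.098) were lost.

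Of the 8 DNA repair targets 0 were called by edgeR and 0 by DESeq2, while 1, Rrm2b, had an unadjusted p below 0.05. Their log2 fold changes ran from -0.15 to 0.58. In the group of secreted, membrane and other targets, 2 of 11 tested were higher and 1 lower. Epha2, an ephrin receptor, rose by 0.34 (SE 0.097, adjusted p = 0.014), Thbs1, the matrix protein thrombospondin 1, by 0.33 (SE 0.10, adjusted p = 0.022), and Cd82, a tetraspanin, fell by 0.28 on the log2 scale (SE 0.065, adjusted p = 0.0037). The calls of Epha2 and Thbs1 each depended on single libraries. The adjusted p of Epha2 was 0.057 without NP replicate 2, 0.067 without NP replicate 3 and 0.065 without LP replicate 3, and that of Thbs1 was 0.081 without NP replicate 1, 0.053 without NP replicate 3 and 0.14 without LP replicate 3. With DESeq2 the adjusted p was 0.13 for Epha2 and 0.15 for Thbs1.

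**Figure D4:**
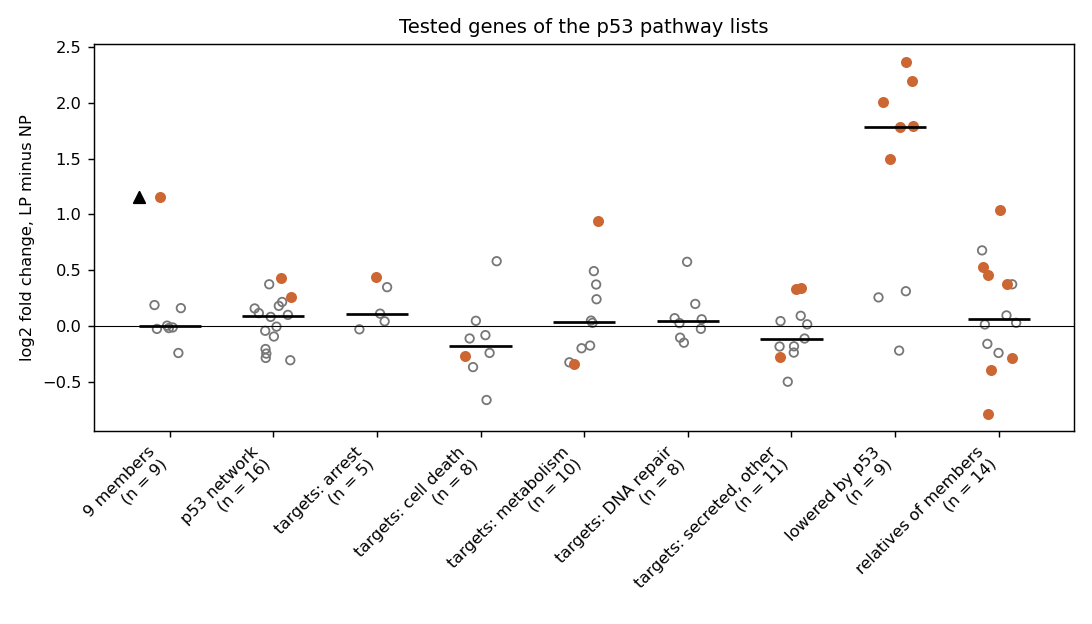
Log2 fold change of LP against NP for the tested genes of each list, with an adjusted p below 0.05 in edgeR (filled orange) or not (open), the list's median as a black line and Ccng1, chosen for its rise, as a triangle. The genes that p53 lowers have a median of 1.78, and the medians of all other lists lie between -0.18 and 0.11.

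Genes of cell division that p53 lowers, through p21 and the DREAM repressor complex, were measured as the other arm of the pathway. Of 14 listed genes 13 were in the table and 9 were tested, of which 6 were higher in LP, each more than 2-fold, and 0 lower. Among all genes tested, 4.90% were called higher by more than 2-fold. Topoisomerase gene Top2a rose from 12, 18 and 14 reads in NP to 69, 92 and 93 in LP, a log2 fold change of 2.37 (SE 0.20, adjusted p = 4.98e-08). The mitotic kinase gene Cdk1 rose by 2.20 (SE 0.31), its cyclin gene Ccnb1 by 2.00 (SE 0.36) and the polo-like kinase gene Plk1 by 1.79 (SE 0.35), with adjusted p-values of 0.00086 or smaller. Cdc20 and Mki67, named after their values were seen, were the other two. Cdk1, Ccnb1 and Plk1 had 3 to 8 reads per NP sample, and genes this low enter the test through their LP reads, so that the count of genes called among those tested is not independent of the direction. The 4 genes below the filter were Birc5, Bub1, Mybl2 and Ccna2. Over all 13 genes, 12 had every LP sample above every NP sample, as did 2840 of the 15388 genes in the table and 21.1% of those tested.

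The relatives of the members were compared to see whether families moved as a whole. Of 14 tested, 4 were higher and 3 lower, with a median log2 fold change of 0.063. The shares over all genes tested were 15.3% higher and 11.7% lower. Tp53inp2, the relative of Tp53inp1 that acts in autophagy and is abundant in muscle, rose from 123, 125 and 117 CPM to 245, 246 and 260 CPM, a log2 fold change of 1.04 (SE 0.059, adjusted p = 2.87e-10), while Tp53inp1 was at -0.025. The part of muscle RNA in the value of Tp53inp2 was not tested. Ccng2, the other G-type cyclin, which is driven by FoxO factors, rose by 0.53 (SE 0.15, adjusted p = 0.015), with an adjusted p of 0.059 without NP replicate 1 and 0.056 without LP replicate 3. Of the relatives of Cdkn1a, Cdkn1c, the inhibitor p57, fell by 0.79 on the log2 scale (SE 0.23, adjusted p = 0.018). Its adjusted p was 0.055 without NP replicate 3, 0.057 without LP replicate 1 and 0.085 without LP replicate 3. Cdkn1b, the inhibitor p27, was at -0.16 (SE 0.086, adjusted p = 0.21). Phlda1, the relative of Phlda3, rose by 0.46 (SE 0.085, adjusted p = 0.00050). Sesn3, Bcl2l1 and Bok, named after their values were seen, had log2 fold changes of 0.38, -0.39 and -0.29. With DESeq2 the adjusted p was 0.14 for Ccng2, 0.090 for Cdkn1c and 0.15 for Bok, all past 0.05.

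Profiles over the 6 samples were compared with that of Ccng1, by the root mean square difference of log2 CPM after centring each gene on its own mean, among 7942 other genes with a mean of at least 50 reads. Among the 5 nearest genes were Ndufs1 (0.044), Slc41a1 (0.046), a magnesium transporter, and Ndufs7 (0.051), where both Ndufs genes encode core subunits of respiratory complex I. Ndufs1 was at 109, 91.7 and 98.2 CPM in NP and 238, 216 and 231 CPM in LP. The log2 fold changes were 1.20 for Ndufs1, 1.17 for Slc41a1 and 1.13 for Ndufs7. Among the members with enough reads, Cdkn1a ranked 100 at a difference of 0.16, Sesn1 ranked 1563, Mdm2 1739, Phlda3 3552 and Aen 6253. Profiles in these samples differ mainly between NP and LP, and any gene with a similar change is near Ccng1 by this measure.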

How the data were processed

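Raw read counts per gene were deposited by the authors for 3 NP and 3 LP thyroid samples, after mapping with TopHat 1.4.0 to rn5 and counting with HTSeq on Ensembl gene models. No normalization had been applied. Counts were fitted in R 4.3.3 with edgeR 4.0.16 (TMM, filterByExpr, quasi-likelihood test, Benjamini-Hochberg adjustment over 11738 genes). A gene was called at an adjusted p below 0.05. CPM values use TMM factors. Standard errors came from the size of the log2 change over the root of the F statistic, and 95% intervals use the degrees of freedom of the fit. The steps were checked on simulated counts, where edgeR recovered 89% and DESeq2 76% of the genes made to change. The simulated samples were independent, so this check does not cover the likeness of replicates 2 and 3.

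Totals per sample set the depth, and 3 reads corresponded to 0.87 to 1.09 CPM, a limit of counting error only. The members and lists were chosen with earlier results of these data known. Named are the members, Mdm4, Ppm1d, Ccng2, up to 4 called genes of largest change per pathway list, and the 5 genes nearest to Ccng1 in profile. Results for a few genes under this rule are not reported here. Marker lists of 13 tissues or cell types were summed per sample.

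Same-numbered samples deviated together from their group means (correlations over genes 0.493, 0.223 and 0.192), so an alternative fit held the replicate number as a block, although replicates 2 and 3 were interchangeable (0.216 across numbers). Other alternatives were each replicate left out, no filter, a mean of at least 50 reads, DESeq2 1.42.0 or its size factors, TMM without muscle markers and changed genes, replicates 2 and 3 summed, an adjusted p below 0.01, and, chosen after the data were seen, muscle markers taken out of the table. Gene lengths were not used, so levels are not compared between genes.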

Additional observations from a re-analysis of the deposited data

How the results depend on the processing

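Under every alternative run, Cdkn1a was called higher, and the 7 other members beside Ccng1, which was chosen for its rise, were not called wherever they were tested. With a mean of at least 50 reads 6 members were tested, and Bax, Zmat3 and Tp53inp1 were left out. The log2 fold change lay between 1.08 and 1.20 for Ccng1 and between 1.02 and 1.35 for Cdkn1a. Among alternative values of the named genes, 600 stayed on the same side of the threshold and 30 lost the call. The sign changed in 18 values of 5 genes that were not called, Bax, Zmat3, Phlda3, Tp53inp1 and Ppm1d, and in 0 values of called genes. For the other p53 targets the number called higher, 4, was 2 with DESeq2 in place of edgeR and 2 at an adjusted p below 0.01, and ran from 2 to 4 when single replicates were left out, the 2 being without LP replicate 3. Their number called lower, 3, was 6 with the replicate block, 5 with replicates 2 and 3 summed and the replicate block, and 1 with DESeq2. For the genes that act with or on p53 the 2 called higher became 0 with DESeq2, 1 at an adjusted p below 0.01, and 1 to 3 when single replicates were left out, the 1 being without NP or LP replicate 1. For the genes lowered by p53 the 6 called higher became 1 of 1 tested with a mean of at least 50 reads. For the relatives of the members the 3 called lower became 1 with DESeq2 and 1 at an adjusted p below 0.01. DESeq2 called 1922 genes in all and edgeR 3168, of which 2107 had an adjusted p below 0.01. With the replicate block edgeR called 3784. The cause of these differences was not tested. The replicate block changed no other call of a named gene. The muscle marker sum was 91.7 times higher in LP, and 87.0 times by library totals alone. Bax, Zmat3 and Tp53inp1, with at most 43 reads in each sample, had the widest intervals of the members.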

Other observations

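The 13 genes of the count table with an adjoining pair of p53 decamers in the 250 bases before the start were listed after the values of Ccng1 and Cdkn1a were seen. Besides these 2 members they were Aar2, Cd80, Etnk1, Fam171a1, Gpr132, Gtse1, Guca1b, Rab21, Rnps1, Ttc33 and Zfp365. Of the 13, 10 were tested by edgeR, among them the 2 members. The log2 fold changes of the other 8 tested genes lay between -0.21 for Aar2 and 0.49 for Zfp365 (standard error 0.26, adjusted p = 0.19). Gtse1, a known p53 target that acts on p53 in turn, had 77 reads over the 6 samples and a log2 fold change of 0.26 (standard error 0.30).

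Of the other marker lists, those of endothelium (4 of 5 tested lower, 495 to 520 CPM in NP and 409 to 428 CPM in LP), Schwann cells (2 of 3 higher, 52.7 to 64.3 and 94.6 to 103 CPM) and airway epithelium (3 of 3 higher, 2.86 to 6.57 and 21.9 to 22.6 CPM) also moved with the groups. The summed levels of C cell markers (14179 to 15159 and 12549 to 13323 CPM) and of parathyroid markers (4458 to 4832 and 3715 to 4031 CPM) were lower in LP without overlap. Their genes did not all go down. Of 6 C cell markers tested 1 was called higher, Scg2, and 1 lower, Calca, and Chga had a log2 fold change of -0.011. Of 3 parathyroid markers 1 was called lower, Pth at -0.30, while Gcm2 was at 0.18 and Casr at 0.096. The fibroblast list had 1 of 5 lower. Beside these counts, 15.3% of all genes tested were called higher and 11.7% lower. No marker of macrophages (7 tested), adipocytes (3 tested) or smooth muscle (4 tested) was called by edgeR or DESeq2, with 2 of the macrophage markers and 0 of the others at an unadjusted p below 0.05, and no lymphocyte or myogenic marker had enough reads to be tested. Of the follicular markers 2 of 10 were higher and 3 lower. Pax7, Myf5 and Myod1 were at 0 in every NP sample and summed to 1.28 to 2.96 CPM in LP.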
